A study of Mus musculus with 16 samples.

Results

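The genes of the mitochondrial respiratory chain were described across 16 RNA-seq libraries of mouse embryonic stem cells. A gene belonged to the set when its symbol began with mt-, Nduf, Uqcr, Cox4 to Cox8 or Atp5, or was one of the 4 Sdh genes. The rule selected 132 of the 21455 table entries that carry a symbol, by symbol alone, although the choice to describe this set was made with earlier results of these data known. Of these, 35 were encoded by mitochondrial DNA (13 protein genes, 2 ribosomal RNAs and 20 transfer RNAs) and 97 by the nucleus. The nuclear genes were 82 structural subunits, 8 complex I assembly factors (Ndufaf genes) and 7 processed pseudogenes. The subunits divided into 37 of complex I, 4 of complex II, 8 of complex III, 18 of complex IV and 15 of complex V. All 132 passed the filter on low values. A further 11 annotated genes fit the symbol rule, among them the protein-coding Atp5f1, Cox7b2 and Cox8c, and mt-Tf and mt-Tv. They were not analysed here, so the subunits of complexes IV and V are not complete.

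The respiratory chain passes electrons from NADH (complex I) and succinate (complex II) through complex III to oxygen at complex IV. The proton gradient built on the way drives the ATP synthase, complex V. Complexes I, III, IV and V mix subunits encoded by mitochondrial DNA with subunits encoded in the nucleus, while complex II is wholly nuclear. Mitochondrial DNA is transcribed as long precursors from which transfer RNAs are cut out, so messenger, transfer and ribosomal RNAs share precursors but are processed and degraded separately. Mouse embryonic stem cells in the naive state use both respiration and glycolysis, and the primed state that follows is known for a greater reliance on glycolysis.

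The cells were of the mouse embryonic stem cell line E14tg2a, labelled WT, DKO or P14. The series describes wild-type cells, a cis knockout of Prdm14 and Prdm14 overexpression, and elimination leaves DKO for the second and P14 for the third, since the labels do not define them. WT and DKO cells were taken in 2i medium and at day 2 and day 4, and P14 cells at day 2 and day 4, with 2 libraries in each of the 8 groups. The 2i medium is N2B27 with LIF at 1000 U/mL, the MEK inhibitor PD0325901 at 1 µM and the GSK3β inhibitor CHIR99021 at 3 µM. Day 2 and day 4 are taken as days of induction towards epiblast-like cells in N2B27 with bFGF at 12 ng/mL on fibronectin. Libraries were made from total RNA with a stranded kit. The labels name no clone, separate culture or batch. Each p-value thus reflects only how far these samples spread, which may be technical, and the effect of a genotype and that of a particular line cannot be told apart.

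Library totals were 20696338 to 32710604 reads, and replicates of a group correlated at 0.965 to 0.977 over all genes. Prdm14 did not follow a knockout in the libraries labelled DKO. Its normalized counts were 1083 and 1096 in WT and 1803 and 1803 in DKO cells in 2i medium, 625 and 712 against 1347 and 1273 at day 2, and 219 and 166 against 595 and 571 at day 4. In P14 cells the counts were 11036 and 10669 at day 2 and 7054 and 8014 at day 4. The libraries labelled DKO therefore held more Prdm14 RNA than WT, and a read count over the whole gene does not show which part of it is lost. Marker genes moved with the groups. The 6 naive pluripotency markers summed to 61243 to 64319 normalized counts in WT 2i, 8430 to 8861 at day 2 and 1464 to 1481 at day 4. In DKO libraries the sum was 69691 to 70604 in 2i medium, 29859 to 30155 at day 2 and 12336 to 12431 at day 4, and in P14 libraries 14485 to 15817 and 6786 to 7154 at the 2 days. The 5 formative epiblast markers summed to 11263 to 11609 at WT day 2, 6381 to 6485 at DKO day 2 and 5679 to 5821 at P14 day 2. At day 4 they summed to 3370 to 3880 in WT, 7808 to 7853 in DKO and 3598 to 4095 in P14 libraries. The 5 primitive endoderm markers summed to 63.6 to 106 in WT 2i, 1225 to 1511 at WT day 2, and 1035 to 1118 at WT day 4. They summed to 1397 to 1470 at DKO day 2, 3106 to 3180 at DKO day 4, 82.8 to 116 at P14 day 2 and 215 to 221 at P14 day 4. Of the 4 trophectoderm markers 3 were in the table, and they summed to 236 to 1094, with 536 to 551 at WT day 4 and 1070 to 1094 at DKO day 4. Of the 6 fibroblast or feeder markers, 4 were in the table, and they summed to 816 to 1779. In bulk RNA, fewer cells of a type and less RNA per cell cannot be told apart, and the part of these markers in the results below was not tested.

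The sequences that bear on the counts were read first. The genes mt-Atp8 and mt-Atp6 encode 2 subunits of complex V and overlap on mitochondrial DNA, so reads inside the overlap belong to both. The overlap spans 43 bases. The lines show it in capitals, with 20 bases on the outer side, for chrM:7907-7969 and chrM:7927-7989 on the plus strand, from the GENCODE M21 transcripts (GRCm38).
mt-Atp8: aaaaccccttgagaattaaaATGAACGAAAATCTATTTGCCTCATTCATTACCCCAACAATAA
mt-Atp6: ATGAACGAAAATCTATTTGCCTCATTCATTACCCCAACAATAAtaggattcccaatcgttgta
Reads of other genes may be shared with nuclear copies of mitochondrial DNA. The table holds 7 entries on chromosome 1 that copy mitochondrial genes, and 100% of the 50-base windows of mt-Co2 also occur in another transcript. For mt-Co3 the share was 99.86%, for mt-Atp6 99.53%, for mt-Nd4l 98.79% and for mt-Nd3 97.99%. It was 62.23% for mt-Nd4 and 51.14% for mt-Co1, and 0% for mt-Nd1, mt-Cytb, mt-Nd6 and mt-Atp8. The median ratio of the copy Gm28661 to mt-Co2 was 1.03, and that of Gm10925 to mt-Atp6 was also 1.03. The values of mt-Co2, mt-Co3, mt-Atp6, mt-Nd4l and mt-Nd3 are therefore uncertain as to how reads were divided.

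Nuclear respiratory genes are known targets of the transcription factors NRF1, GABP and YY1. RefSeq promoters (GRCm38.p6, 250 bases before to 50 after the start) were matched for 66 of the 82 subunits. Each was searched on both strands for GCATGCGC (NRF1), CCGGAAG (GABP) and AAGATGG (YY1), and no motif lies within another. The NRF1 letters stood in 10 of the 66, or 15.15%, against 2.805% of 27025 promoters. The GABP letters stood in 15, or 22.73%, against 9.121%, and the YY1 letters in 9, or 13.64%, against 6.475%. Of the 30 promoters of subunits that fell between WT 2i and day 4, 4 held the NRF1 letters, 7 the GABP letters and 3 the YY1 letters. The other 36 held them in 6, 8 and 6 cases. A match is a description of the letters and not a binding site. The lines give 4 promoters, chosen after the values were seen, with NRF1 or GABP letters in capitals. Sdhb (chr4:140961021-140961320, plus strand) and Cox6a1 (chr5:115348909-115349208, minus strand) hold both motifs and fell. Uqcr11 (chr10:80406772-80407071, minus strand) holds both and was not past the threshold. Atp5g1 (chr11:96075582-96075881, minus strand) holds none of the 3 and had the smallest adjusted p of all members that fell.
Sdhb: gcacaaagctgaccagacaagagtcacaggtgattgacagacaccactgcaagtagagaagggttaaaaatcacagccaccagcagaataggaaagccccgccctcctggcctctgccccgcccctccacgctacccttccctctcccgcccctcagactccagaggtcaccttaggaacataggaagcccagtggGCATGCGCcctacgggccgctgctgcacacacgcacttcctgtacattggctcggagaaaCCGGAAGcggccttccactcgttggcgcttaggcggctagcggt
Cox6a1: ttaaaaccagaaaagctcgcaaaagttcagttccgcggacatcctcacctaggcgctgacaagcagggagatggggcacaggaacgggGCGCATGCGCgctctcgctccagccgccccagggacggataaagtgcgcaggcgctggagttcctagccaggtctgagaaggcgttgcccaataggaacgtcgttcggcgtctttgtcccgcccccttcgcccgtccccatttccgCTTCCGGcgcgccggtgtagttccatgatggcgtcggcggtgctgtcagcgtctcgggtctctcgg
Uqcr11: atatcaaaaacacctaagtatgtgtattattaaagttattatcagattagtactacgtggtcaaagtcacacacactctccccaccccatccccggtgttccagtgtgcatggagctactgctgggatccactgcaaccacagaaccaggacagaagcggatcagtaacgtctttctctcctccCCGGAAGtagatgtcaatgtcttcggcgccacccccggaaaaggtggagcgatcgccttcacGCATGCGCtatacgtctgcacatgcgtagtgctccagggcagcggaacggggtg
Atp5g1: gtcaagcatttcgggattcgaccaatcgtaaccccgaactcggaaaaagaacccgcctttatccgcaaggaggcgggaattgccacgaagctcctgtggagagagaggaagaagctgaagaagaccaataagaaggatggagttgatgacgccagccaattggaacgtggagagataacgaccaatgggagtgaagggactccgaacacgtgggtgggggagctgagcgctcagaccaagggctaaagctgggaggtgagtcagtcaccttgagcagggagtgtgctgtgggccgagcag

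Mitochondrially encoded genes took 0.624% to 1.60% of the reads of a library, and the 82 nuclear subunits together 0.522% to 0.694%. The 7 chromosome 1 copies took a further 0.296% to 0.736%, which may include mitochondrial reads and is not counted in the mitochondrial share. Per kilobase of exon, the mean normalized count over all libraries was 84222 for mt-Atp6, which encodes subunit a of the ATP synthase, 82194 for mt-Nd1, a membrane subunit of complex I, and 79960 for mt-Atp8. The rank of genes whose reads may be shared with a copy, mt-Atp6 among them, is uncertain. The mean per kilobase of the other protein genes reached down to 4659 for mt-Nd6, the protein gene on the opposite strand. Among nuclear subunits the mean per kilobase was 5322 for Atp5b and 3404 for Atp5a1, the catalytic beta and alpha subunits of complex V. It was 3402 for Cox8a and 2784 for Cox4i1, both of complex IV. These levels use the length of all annotated exons of a gene together, 4237 bases for Atp5b, whose longest annotated transcript has 1916. Per kilobase of that transcript its level would be higher, so nuclear genes are not ranked against the lower mitochondrial genes. Ribosomal RNAs of the mitochondrion took 0.00102% to 0.0119% of reads and the 20 transfer RNAs 0.00452% to 0.0109%. How far library preparation retained ribosomal RNAs, or transfer RNAs of 59 to 75 bases, was not examined. Their counts are therefore not read as levels of the mature RNAs.

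**Figure D1:**
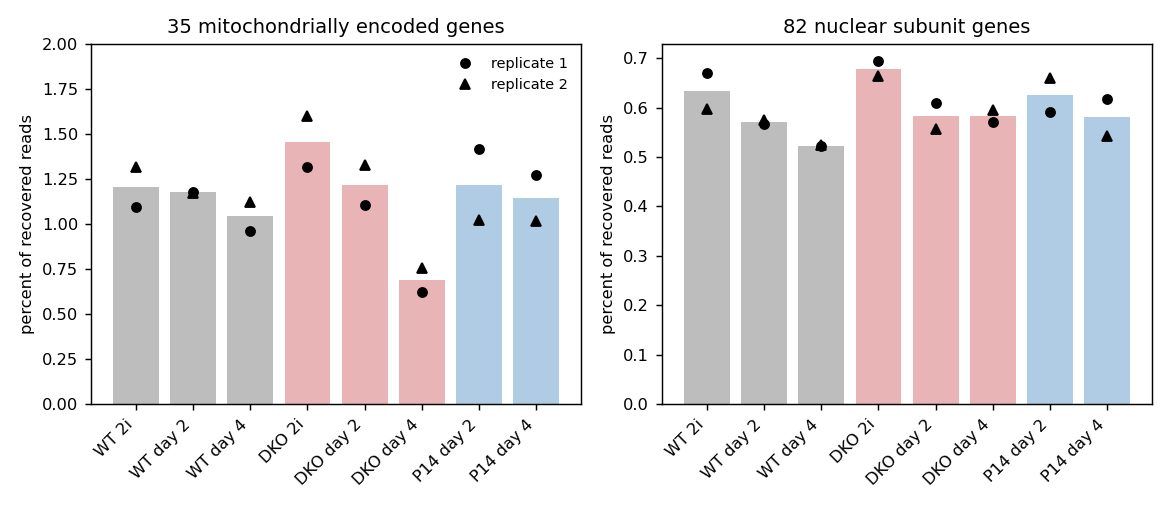
Percent of recovered reads in the 35 mitochondrially encoded genes (left) and the 82 nuclear subunit genes (right) for each group; bars are group means, circles and triangles replicates 1 and 2. Both DKO day 4 libraries, at 0.624% and 0.756%, lie below the other 14 on the left, and the nuclear shares stay between 0.522% and 0.694%.

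The mitochondrial share was 1.10% and 1.32% in WT 2i, 1.18% and 1.17% at WT day 2, and 0.962% and 1.12% at WT day 4. The 2i range overlapped that of each later stage, and both day 4 libraries lay below both day 2 libraries. In libraries labelled DKO it was 1.32% and 1.60% in 2i medium, 1.11% and 1.33% at day 2, and 0.624% and 0.756% at day 4. In P14 libraries it was 1.41% and 1.02% at day 2 and 1.27% and 1.02% at day 4. The share at DKO day 4 was 0.690% ± 0.0932 (SD, n = 2), below every other library. With 2 libraries against 2, an exact permutation test cannot give a two-sided p below 0.333, so no test was made of this share.

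The first comparison asked how respiratory genes change when WT cells leave the naive state. Between 2i medium and day 4, nuclear subunits of all 5 complexes fell, and none rose past the threshold. Of the 82 subunits, 38 were lower at day 4 and 0 higher, with a median log2 fold change of -0.39. Over all 21450 genes tested, 18.7% were lower, 21.9% higher and 40.6% called in either direction, with a median of 0.01. Among 9433 genes with a mean count of at least 200, a limit chosen after the values were seen, 27.4% were lower, 21.4% higher. The 73 subunits above that limit held 35 lower and 0 higher. Fold changes are differences of log2(normalized count + 1), which understates changes of low genes, and the test was limma with a trended variance and Benjamini-Hochberg adjustment over all genes. By complex, 16 of 37 subunits of complex I fell, 3 of 4 of complex II, 5 of 8 of complex III, 6 of 18 of complex IV and 8 of 15 of complex V. The median log2 fold changes were -0.30, -0.48, -0.44, -0.33 and -0.53 in that order. The scaling alternatives are given as counts over all 132 members, with the 35 mitochondrially encoded genes included. They do not show the nuclear subunits apart, and no share of all genes called under those scalings stands beside them. In the main fit 1 member was higher and 47 lower. Median centring gave 0 and 62, and scaling to named entries without mitochondrial genes gave 4 and 28. Those scalings moved the median of all genes from 0.01 to -0.20 and to 0.17.

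In complex I, Ndufv1 (chr19:4007384-4012806, minus strand), the flavoprotein that takes electrons from NADH, had normalized counts of 1899 and 2064 in 2i medium, 1696 and 1452 at day 2 and 1151 and 1147 at day 4. The 3 stages did not overlap, and the count fell by a factor of 1.72 from 2i medium to day 4 (log2 fold change -0.78 ± 0.10 (SE), limma adjusted p = 1.3e-05). Ndufs1, the largest iron-sulfur subunit, showed -0.29 on the log2 scale and did not pass (limma adjusted p = 0.06). Of the 7 nuclear core subunits 4 fell, and of the 8 assembly factors 4 fell, with a median log2 fold change of -0.46.

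Complex II, succinate dehydrogenase, fell in 3 of its 4 genes. Sdha, the flavoprotein, had counts of 4091 and 4280 in 2i medium, 3373 and 3468 at day 2 and 2697 and 2988 at day 4, each stage below the one before (log2 fold change -0.56 ± 0.09 (SE), limma adjusted p = 1.7e-04). Sdhc (chr1:171127165-171150603, minus strand), a membrane anchor, had 2328 and 2183, 2215 and 2101 and 1527 and 1426. It fell mainly after day 2, with -0.06 in the first step and -0.55 in the second on the log2 scale (limma adjusted p = 0.73 and 0.0012). Sdhb, the iron-sulfur subunit, had 2158 and 1924 in 2i medium and 1539 and 1535 at day 4 and passed narrowly (log2 fold change -0.41 ± 0.15 (SE), limma adjusted p = 0.04). Its call was lost without either WT 2i library (0.21 and 0.056) or either WT day 4 library (0.12 and 0.13). Here and below, parentheses after a left-out library hold the limma adjusted p of that fit, in replicate order for a pair. The adjusted p was 0.17 when libraries were scaled without mitochondrial genes. Sdhd, the other anchor, had 1706 and 1305 and 1233 and 1249 and did not pass (log2 fold change -0.27 ± 0.12 (SE), limma adjusted p = 0.097).

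In complex III, Uqcrc1 (chr9:108936633-108949623, plus strand), a core subunit, had counts of 11955 and 12533 in 2i medium, 11280 and 8761 at day 2 and 5017 and 6119 at day 4. The day 4 libraries lay below all 4 earlier ones (log2 fold change -1.14 ± 0.17 (SE), limma adjusted p = 5.4e-05). Uqcrc2, the second core subunit, had 1311 and 1272, 775 and 863 and 851 and 1027, so its fall came by day 2 (log2 fold change -0.66 ± 0.12 (SE), limma adjusted p = 0.001). By day 4 it was -0.47 ± 0.12, adjusted p = 0.0069 with limma, a call lost without WT day 4 replicate 1 (0.10) and at 0.069 under scaling without mitochondrial genes. Uqcrfs1, the Rieske iron-sulfur protein, did not pass (log2 fold change -0.40 ± 0.21 (SE), limma adjusted p = 0.15). Cyc1, the cytochrome c1 subunit whose symbol lies outside the rule, fell (log2 fold change -0.46 ± 0.10 (SE), limma adjusted p = 0.0014), 1 of 3 genes in the list of Cyc1 and the cytochromes c.

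In complex V, Atp5a1 had counts of 12554 and 12837 in 2i medium, 10856 and 10649 at day 2 and 7761 and 7904 at day 4, with no overlap between stages (log2 fold change -0.70 ± 0.10 (SE), limma adjusted p = 5.8e-05). Atp5b had 24672 and 25956, 21927 and 23536 and 18179 and 18733 (log2 fold change -0.46 ± 0.11 (SE), limma adjusted p = 0.0045), and its adjusted p was 0.055 under scaling without mitochondrial genes. Subunit c of the rotor ring is encoded by 3 genes, Atp5g1, Atp5g2 and Atp5g3, whose mature products are identical. Atp5g1 (chr11:96068852-96075670, minus strand) had 1879 and 2075 in 2i medium, 1426 and 1304 at day 2 and 829 and 815 at day 4 and fell by a factor of 2.40 (log2 fold change -1.26 ± 0.15 (SE), limma adjusted p = 5.9e-06). Atp5g3 fell less (log2 fold change -0.53 ± 0.11 (SE), limma adjusted p = 0.0013), and Atp5g2, at 3426 and 3814 in 2i medium and 3685 and 4126 at day 4, did not pass (log2 fold change 0.11 ± 0.15 (SE), limma adjusted p = 0.60). Per kilobase, Atp5g1 made up 12.3% of the 3 genes in WT 2i, 9.12% at day 2 and 5.63% at day 4, while Atp5g2 went from 66.3% to 71.8% and 78.2%. Atp5g2 was the most abundant of the 3 at each WT stage. These shares use the length of all annotated exons together, 4912 bases for Atp5g1, 1675 for Atp5g2 and 2181 for Atp5g3. Their levels depend on that choice, so Atp5g1 is not ranked against Atp5g3.

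**Figure D2:**
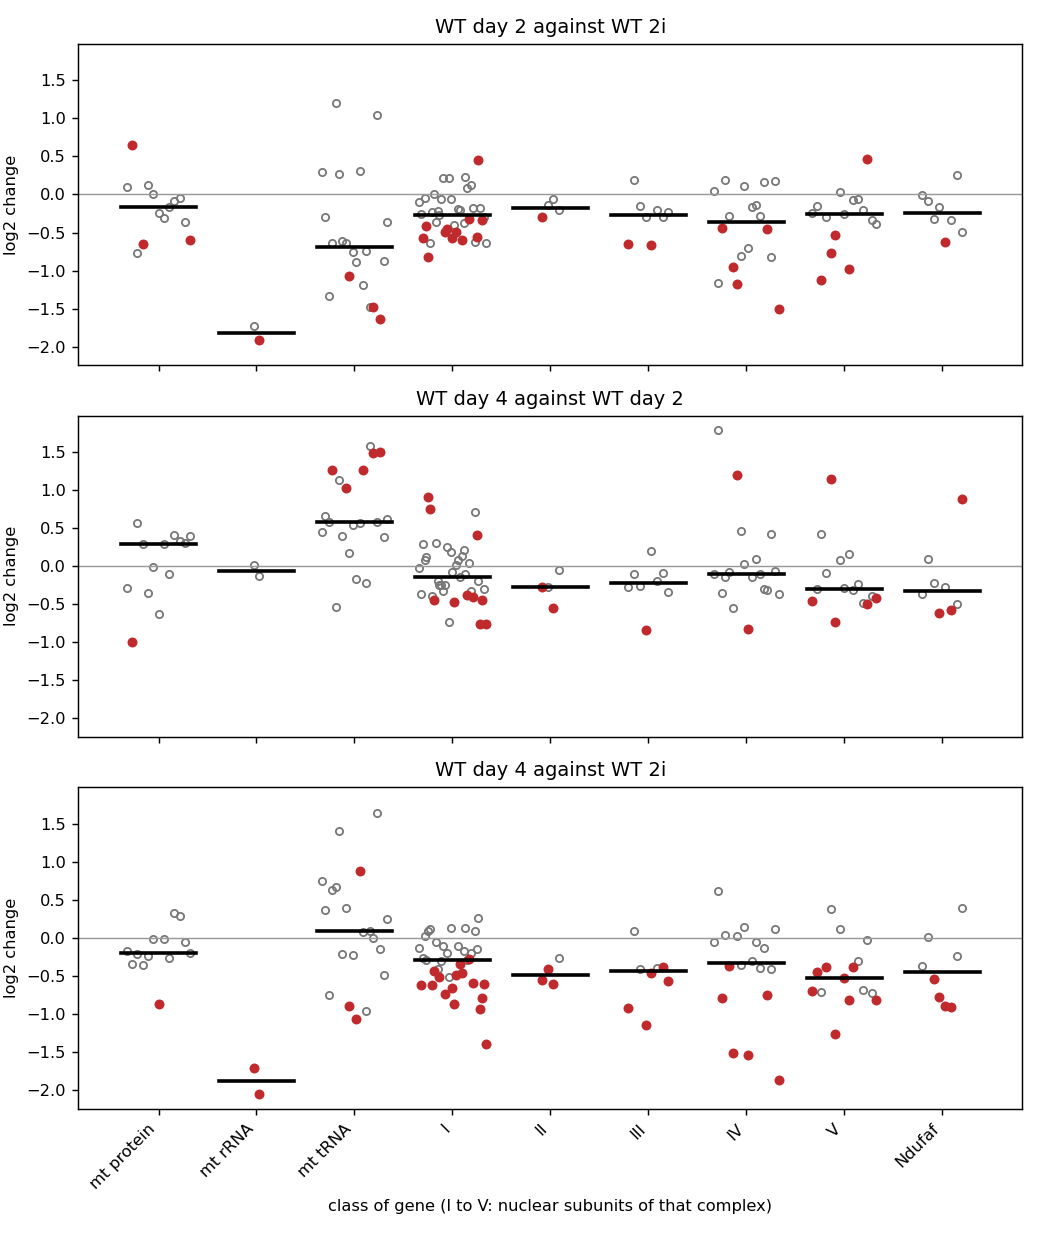
Log2 fold changes of respiratory genes between WT stages (3 panels: day 2 against 2i medium, day 4 against day 2, day 4 against 2i medium), each point 1 gene by class; red points are past the threshold, open grey points are not, and black lines are class medians. In the bottom panel the medians of nuclear subunits of complexes I to V lie between -0.30 and -0.53.

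The 2 steps between 2i medium and day 4 were then described apart. Of the 47 members lower at day 4 than in 2i medium, 18 were also called lower by day 2 and 15 from day 2 to day 4. A member that was not called in a step may still have fallen in it. By day 2, 23 of 82 nuclear subunits were lower and 2 higher, where 10.8% of all genes were lower, 12.7% higher and 23.4% called. Among genes with a mean of at least 200, 15.6% were lower, and so were 21 of the 73 subunits there. From day 2 to day 4, 15 were lower and 5 higher, where 15.8% of all genes were lower, 17.2% higher and 33.0% called. Among genes with a mean of at least 200 the share lower was 23.0%, with 14 of 73 subunits, so this second count lay near its background. Of the 30 members lower by day 2 and the 18 lower from day 2 to day 4, 3 were in both, Atp5g1, Ndufv1 and Sdha. Another 6 fell by day 2 and rose again by day 4, namely Atp5e, Cox6b1, Ndufa2, Ndufs6, mt-Ts1 and mt-Tt. These 2 steps share the day 2 libraries, so high or low values there move both. The counts are therefore set side by side and not tested against each other. How many of all genes were lower in both steps, or fell and rose again, is not given here. The overlap is thus not read as a trait of the members. Cox6b1, a complex IV subunit on the outer face, showed the largest such dip among nuclear subunits. Its counts were 514 and 813 in 2i medium, 291 and 282 at day 2 and 569 and 761 at day 4, and both day 2 libraries lay below the other 4. It fell in the first step (log2 fold change -1.17 ± 0.20 (SE), limma adjusted p = 4.5e-04) and rose in the second (log2 fold change 1.20 ± 0.20 (SE), limma adjusted p = 2.7e-04). Ndufs7, an iron-sulfur core subunit of complex I, and Atp5l, a stalk-associated subunit of complex V, were the 2 nuclear subunits higher at day 2. Ndufs7 had 570 and 577 in 2i medium and 820 and 745 at day 2 (log2 fold change 0.45 ± 0.11 (SE), limma adjusted p = 0.0083), a call lost without WT day 2 replicate 1 (0.083). Atp5l had 4404 and 3383 and 5296 and 5375 (log2 fold change 0.47 ± 0.15 (SE), limma adjusted p = 0.033), a call lost without WT 2i replicate 2 (0.31) or either WT day 2 library (0.11 and 0.13). Among the largest falls from day 2 to day 4 were Ndufs8, an iron-sulfur core subunit, at 724 and 655 and then 394 and 419 (log2 fold change -0.76 ± 0.15 (SE), limma adjusted p = 0.0011), and the accessory subunit Ndufv3 (log2 fold change -0.76 ± 0.28 (SE), limma adjusted p = 0.049). The Ndufv3 call was lost without WT day 2 replicate 1 (0.32) or either WT day 4 library (0.18 and 0.11). Members past the threshold from day 2 to day 4 numbered 29, of which 11 were higher and 18 lower. Median centring gave 6 higher and 39 lower, and scaling without mitochondrial genes 11 and 8, as the median of all genes moved from 0.02 to -0.16 and 0.12. The count was 14 to 20 when 1 library was left out, 14 without WT day 2 replicate 1 or WT day 4 replicate 2. For the first step the 33 members became 14 to 22, with 14 without WT day 2 replicate 2.

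Fewer calls fell among the mitochondrially encoded protein genes. Between 2i medium and day 4, 1 of 13 fell and 0 rose, with a median log2 fold change of -0.20. Of all genes, 18.7% were lower and 21.9% higher there, and the difference from the nuclear set was not tested. The gene that fell was mt-Nd1, whose counts were 86753 and 130415 in 2i medium, 98719 and 82358 at day 2 and 52805 and 64117 at day 4 (log2 fold change -0.87 ± 0.26 (SE), limma adjusted p = 0.013). Its call was lost without WT 2i replicate 2 (0.16) or WT day 4 replicate 1 (0.10). By contrast mt-Cytb, the cytochrome b of complex III, had 17873 and 23722 in 2i medium and 18620 and 22374 at day 4, overlapping ranges with a log2 fold change of -0.01 ± 0.19 (SE). The remaining 11 lay between -0.36 for mt-Co2 and 0.33 for mt-Nd4 on the log2 scale. At day 2, mt-Atp8 stood out as the protein gene that was higher than in 2i medium. Its counts were 15596 and 14620, 24508 and 22767 at day 2 and 12377 and 11337 at day 4, with the day 2 libraries above the other 4. The rise passed narrowly (log2 fold change 0.65 ± 0.22 (SE), limma adjusted p = 0.048) and was lost without either WT 2i library (0.12 and 0.18) or either WT day 2 library (0.19 and 0.12), and also under median centring (0.070) and TMM factors (0.053). The fall that followed kept its call in each of the 4 fits that left out 1 library (log2 fold change -0.996 ± 0.22 (SE), limma adjusted p = 0.0029). mt-Co2, a catalytic subunit of complex IV, and mt-Nd6 were lower at day 2 (-0.65 ± 0.22, adjusted p = 0.043 and -0.60 ± 0.20, adjusted p = 0.038, limma), and both calls were lost when any 1 of the 4 libraries was left out. The highest adjusted p values in those fits were 0.24 and 0.15.

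Counts of mitochondrial ribosomal and transfer RNAs varied more between replicates, and they are recovered reads rather than levels of the mature RNAs. The large ribosomal RNA mt-Rnr2 had counts of 2456 and 619 in WT 2i, 519 and 204 at day 2 and 276 and 319 at day 4. It was lower at day 4 (log2 fold change -2.05 ± 0.56 (SE), limma adjusted p = 0.0081), a call lost without WT 2i replicate 1 (0.16), where the fold change shrank to -1.06. mt-Rnr1, the small ribosomal RNA, had 568 and 169 in 2i medium and 87.4 and 101 at day 4 (log2 fold change -1.71 ± 0.60 (SE), limma adjusted p = 0.034), and its call was lost without WT 2i replicate 1 (0.37) or either WT day 4 library (0.13 and 0.089). WT 2i replicate 1 held the highest count of both. Of the 20 transfer RNAs, 0 were higher and 3 lower by day 2, and 5 were higher and 0 lower from day 2 to day 4. Of all genes, 10.8% were lower by day 2 and 17.2% higher from day 2 to day 4. Both steps share the day 2 libraries, and with so few genes neither count is read as apart from its background. The threonine transfer RNA mt-Tt had 52.8 and 45.7 in 2i medium, 15.1 and 15.1 at day 2 and 47.5 and 41.5 at day 4. It fell (log2 fold change -1.64 ± 0.36 (SE), limma adjusted p = 0.0034) and rose (log2 fold change 1.50 ± 0.36 (SE), limma adjusted p = 0.0046) in all fits that left out 1 library. The serine transfer RNA mt-Ts1 moved likewise, at 209 and 236, 63.8 and 98.0 and 160 and 311. Its fall (log2 fold change -1.48 ± 0.39 (SE), limma adjusted p = 0.011) was lost without WT 2i replicate 2 (0.069) or WT day 2 replicate 1 (0.12), and its rise (1.48 ± 0.39, adjusted p = 0.008, limma) without WT day 2 replicate 1 (0.091) or WT day 4 replicate 2 (0.12). The proline and glutamate transfer RNAs mt-Tp and mt-Te rose from day 2 to day 4 (1.27 ± 0.43, adjusted p = 0.033 and 1.26 ± 0.41, adjusted p = 0.027, limma), with calls lost without either WT day 2 library (0.099 and 0.11) or either WT day 4 library (0.094 and 0.13) for mt-Tp and without WT day 2 replicate 1 (0.22) or WT day 4 replicate 2 (0.17) for mt-Te. The asparagine transfer RNA mt-Tn was higher at day 4 than in 2i medium, at 149 and 74.5 and 197 and 191 (log2 fold change 0.88 ± 0.34 (SE), limma adjusted p = 0.049), a call lost without WT 2i replicate 2 (0.46) or either WT day 4 library (0.15 and 0.13).

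Complex IV has subunits with tissue-specific isoform genes, and in WT cells the 2 muscle-type isoforms fell. Cox7a1, the heart and skeletal muscle isoform of subunit 7a (chr7:30184144-30186078, plus strand), had counts of 131 and 96.6 in 2i medium, 77.9 and 60.3 at day 2 and 36.7 and 39.7 at day 4. Each stage lay below the one before, and day 4 was lower than 2i medium by a factor of 2.90 (log2 fold change -1.53 ± 0.25 (SE), limma adjusted p = 1.4e-04). Its partner Cox7a2 did not pass (log2 fold change -0.30 ± 0.12 (SE), limma adjusted p = 0.05). Cox6a2, the muscle isoform of subunit 6a (chr7:128205435-128206387, minus strand), had 62.4 and 83.0, 44.4 and 30.2 and 28.1 and 21.7, again without overlap between stages (log2 fold change -1.51 ± 0.29 (SE), limma adjusted p = 6.1e-04). Its partner Cox6a1 fell by 0.36 on the log2 scale, and that call was lost without either WT 2i library (0.13 and 0.14) or either WT day 4 library (0.14 and 0.14); under scaling without mitochondrial genes its limma adjusted p was 0.35. Per kilobase, Cox6a2 was 3.81% ± 0.711 (SD, n = 2) of the pair in WT 2i and 1.71% ± 0.303 at day 4, and Cox7a1 went from 12.9% ± 0.771 to 5.84% ± 0.0472 of its pair.

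Ndufa4, a complex IV subunit despite its name, has the paralog Ndufa4l2 (chr10:127514967-127517154, plus strand), known as a target of hypoxia-inducible factor. Counts of Ndufa4l2 were 94.8 and 152 in WT 2i, 40.0 and 43.4 at day 2 and 29.1 and 35.2 at day 4. Both later stages lay below 2i medium, by a factor of 3.66 at day 4 (log2 fold change -1.87 ± 0.36 (SE), limma adjusted p = 6.6e-04), while Ndufa4 did not pass (log2 fold change 0.12 ± 0.15 (SE), limma adjusted p = 0.57). The lung and heart isoforms Cox4i2 and Cox8b stayed at or below 16.3 counts in every library, and Cox8b was at 0 in 3 of them. Cox6b2, the testis isoform of subunit 6b, had 186 and 138 in WT 2i and 115 and 136 at day 4 and did not pass (log2 fold change -0.35 ± 0.32 (SE), limma adjusted p = 0.41). Cox4i1, Cox5b and Cox7a2l also did not pass between 2i medium and day 4, whereas Cox5a and Cox8a fell (log2 fold changes -0.79 and -0.76, limma adjusted p = 2.0e-04 and 7.0e-05).

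**Figure D3:**
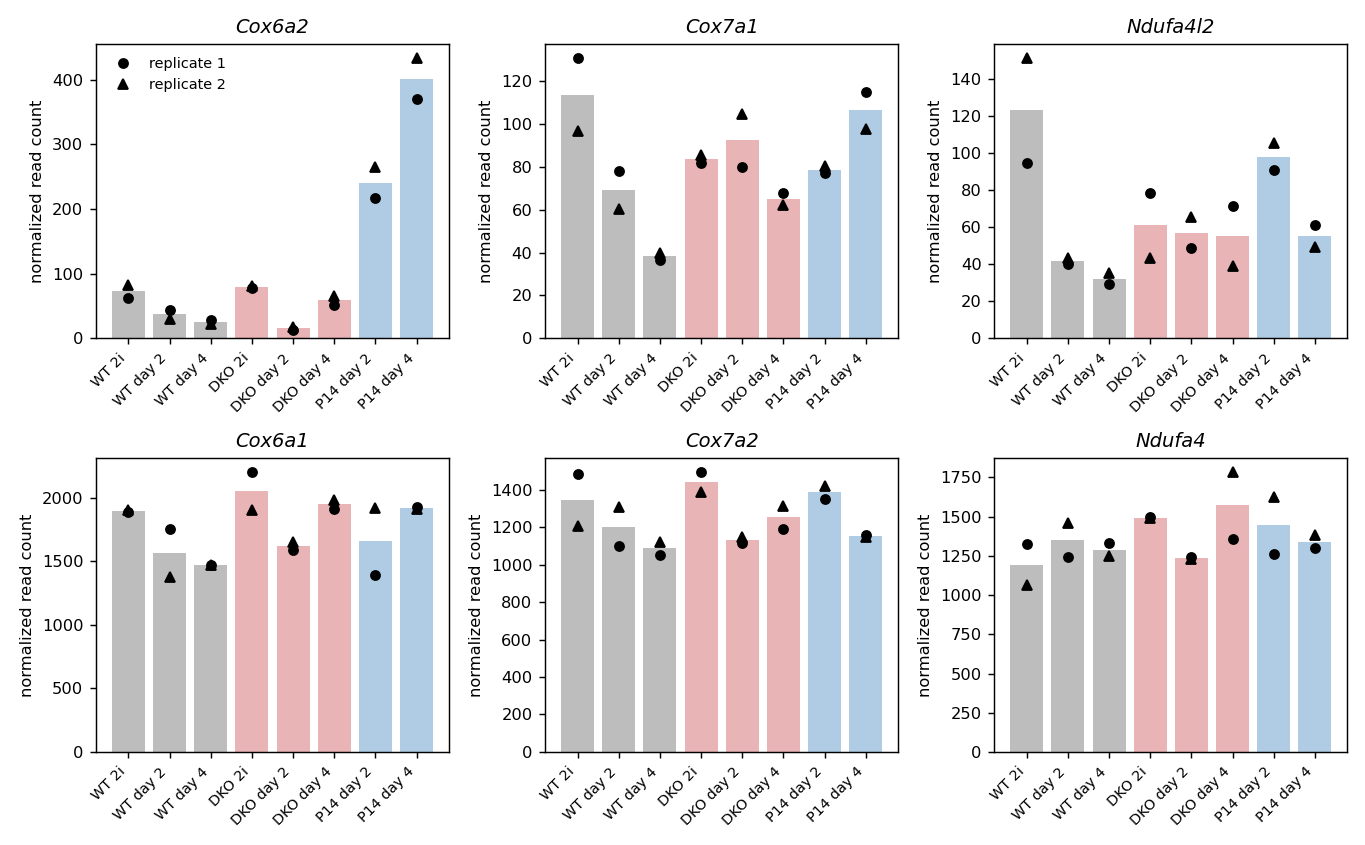
Normalized read counts of Cox6a2, Cox7a1 and Ndufa4l2 (top) and their partners Cox6a1, Cox7a2 and Ndufa4 (bottom) in each library of the 8 groups. Cox6a2 reaches 370 and 434 in P14 day 4 libraries and 28.1 and 21.7 at WT day 4, while Cox6a1 lies between 1378 and 2203 in every library.

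Genes that build or regulate the chain were taken from lists, whose counts are read against the 21.9% of all genes higher, 18.7% lower and 40.6% called in this comparison. Of 46 measured assembly factors outside the symbol rule, 2 were higher and 8 lower between WT 2i and day 4, a share of either direction below that of all genes. Sco1, a copper chaperone of complex IV, and Foxred1, a complex I assembly factor, fell (-0.86 ± 0.13, adjusted p = 9.1e-05 and -0.62 ± 0.13, adjusted p = 0.0012, limma). Of 14 regulators, 2 were higher and 7 lower. Esrrb, an orphan receptor of the naive network, had counts of 13163 and 14719 in 2i medium and 179 and 183 at day 4 (log2 fold change -6.26 ± 0.10 (SE), limma adjusted p = 8.6e-16), and Nfe2l2, the antioxidant response factor, fell as well (-1.75 ± 0.11, adjusted p = 4.0e-09, limma). Of 22 genes listed for mitochondrial RNA processing, which include Dimt1 of cytoplasmic ribosomal RNA, 0 were higher and 9 lower. The share called in either direction was thus near that of all genes, while the share lower was above the 18.7% of all genes. The lists were not tested as sets. Grsf1, an RNA-binding protein of mitochondrial RNA granules, fell by day 2 and stayed low, at 4468 and 4588, 1035 and 1059 and 1034 and 1120 counts (log2 fold change -2.07 ± 0.10 (SE), limma adjusted p = 1.6e-10). Mrm2, a methyltransferase of mt-Rnr2, fell too (-1.38 ± 0.18, adjusted p = 1.3e-05, limma). Of 21 genes of mitochondrial DNA maintenance and transcription, 4 were higher and 3 lower, with Top1mt, the mitochondrial topoisomerase, up (1.43 ± 0.19, adjusted p = 2.4e-05) and Polrmt, the mitochondrial RNA polymerase, down (-0.55 ± 0.11, adjusted p = 0.0011, limma). Of 14 tricarboxylic acid cycle enzymes 0 were higher and 6 lower, among them Idh3g, a subunit of the NAD-dependent isocitrate dehydrogenase (-0.65 ± 0.10, adjusted p = 7.3e-05, limma). Again the share called in either direction was near that of all genes, and the share lower was above it. Of 14 genes of pyruvate entry and lactate production 4 were higher and 7 lower. Pdk1, a kinase that inhibits pyruvate dehydrogenase, rose (0.96 ± 0.11, adjusted p = 2.6e-06) and Pdha1, a subunit of that enzyme, fell (-0.80 ± 0.09, adjusted p = 5.2e-06, limma). Of 12 genes of alternative electron entry and uncoupling 3 were higher and 3 lower, with the smallest adjusted p for the aspartate-glutamate carrier Slc25a13 (-1.06 ± 0.10, adjusted p = 4.4e-07) and the electron transfer flavoprotein Etfb (-0.68 ± 0.12, adjusted p = 3.4e-04, limma). Atpif1, the inhibitor protein of the ATP synthase, rose (0.58 ± 0.21, adjusted p = 0.041, limma).

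The second comparison set libraries labelled DKO against WT of the same stage. At day 4, 13 nuclear subunits were higher. Of the 35 mitochondrially encoded genes 2 were lower, a count near the 6.8% of all genes that were lower. Of the 82 subunits 0 were lower, with a median log2 fold change of 0.20, where 6.95% of all genes were higher, 6.8% lower and 13.8% called. The 13 lay in all 5 complexes, with 5 of complex I, 2 of complex II, 1 of complex III, 2 of complex IV and 3 of complex V. Among genes with a mean of at least 200, 11.1% were higher, against 12 of 73 subunits. All 13 mitochondrial protein genes had negative log2 fold changes, with a median of -0.58, and 1 of them passed, while 5 had an unadjusted p below 0.05 and limma-voom called 3. Of the 20 transfer RNAs 19 were negative, with a median of -0.77, and 1 passed. Among all genes 11350 of 21450 were negative, and their share at an unadjusted p below 0.05 is not given here. These genes share precursors and, in part, reads, so their common sign is not that many separate observations. With scaling without mitochondrial genes the split of calls went from 13 higher and 2 lower to 7 and 5. The 15 calls became 6 when only the 2 groups were fitted, and 1 to 9 when 1 library was left out, 1 without WT day 4 replicate 2, and 6 or 7 without WT day 4 replicate 1 or DKO day 4 replicate 1. None of the 15 passed in all 4 of those fits.

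**Figure D4:**
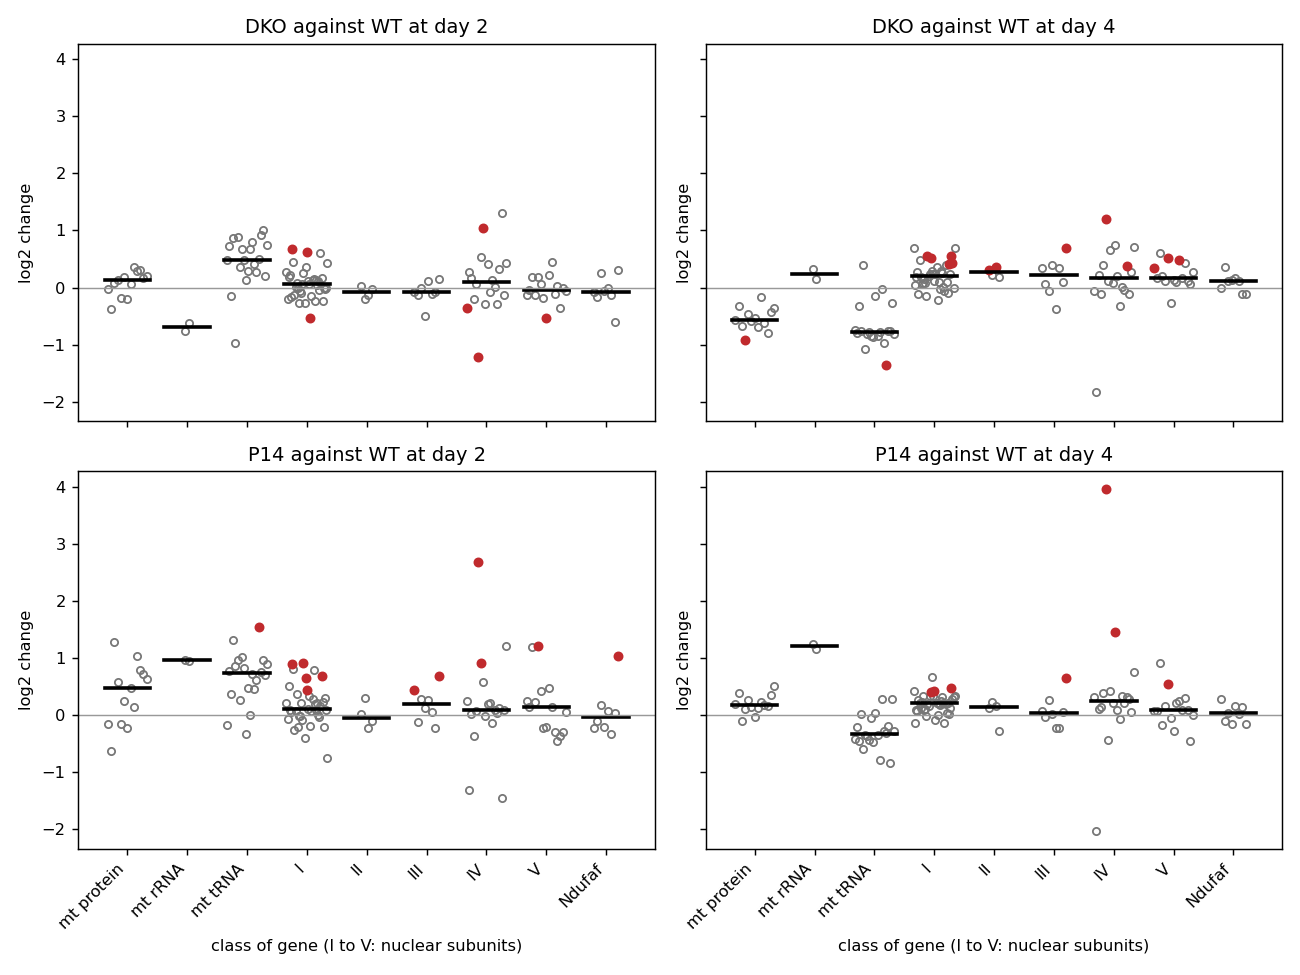
Log2 fold changes of respiratory genes in DKO and P14 libraries against WT of the same day (4 panels), each point 1 gene by class; red points are past the threshold, open grey points are not, and black lines are class medians. In the DKO day 4 panel the median of the 13 mitochondrial protein genes is -0.58 and the medians of nuclear subunit classes are above 0.

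The mitochondrial protein gene that passed at day 4 was mt-Co2, with counts of 18372 and 22600 in WT and 10227 and 11432 in DKO libraries, which did not overlap (log2 fold change -0.91 ± 0.22 (SE), limma adjusted p = 0.011). That call was lost without WT day 4 replicate 2 (0.12) or DKO day 4 replicate 1 (0.076). For mt-Cytb, which shares no 50-base window with another gene, the counts were 18620 and 22374 in WT and 12310 and 14968 in DKO libraries. They did not overlap, and the adjusted p was just above the threshold (log2 fold change -0.59 ± 0.19 (SE), limma adjusted p = 0.054). For mt-Atp6 they were 46212 and 57497 and 29942 and 39940 (log2 fold change -0.58 ± 0.21 (SE), limma adjusted p = 0.078). The summed counts of the 13 protein genes were 216614 and 260519 at WT day 4 and 139561 and 186317 at DKO day 4. The serine transfer RNA mt-Ts1 also passed, at 160 and 311 against 72.8 and 103 (log2 fold change -1.35 ± 0.39 (SE), limma adjusted p = 0.03), a call lost without WT day 4 replicate 2 (0.29) or DKO day 4 replicate 1 (0.18). Among nuclear genes, Ndufab1, the mitochondrial acyl carrier protein in complex I, had 1123 and 1268 in WT and 1787 and 1702 in DKO libraries (log2 fold change 0.55 ± 0.12 (SE), limma adjusted p = 0.0054), lost without WT day 4 replicate 1 (0.07). Ndufv1 had 1151 and 1147 and 1557 and 1539 (log2 fold change 0.43 ± 0.10 (SE), limma adjusted p = 0.009), lost without either WT day 4 library (0.053 and 0.059) or DKO day 4 replicate 1 (0.051). Sdha and Sdhc were higher by 0.30 and 0.36 on the log2 scale (limma adjusted p = 0.041 and 0.039), and each call was lost without any 1 of the 4 libraries, with adjusted p up to 0.27 and 0.22. Uqcrq, a small subunit of complex III, had 2561 and 2553 and 4536 and 3735 (log2 fold change 0.69 ± 0.17 (SE), limma adjusted p = 0.011), lost without either WT day 4 library (0.064 and 0.069) or DKO day 4 replicate 1 (0.11). Ndufs8 and Ndufb11 were higher by 0.55 and 0.52 on the log2 scale (limma adjusted p = 0.022 and 0.012), lost without either WT day 4 library (0.13 and 0.076) or DKO day 4 replicate 1 (0.15) for Ndufs8 and without WT day 4 replicate 2 (0.10) or DKO day 4 replicate 2 (0.11) for Ndufb11. Uqcrc1, at 5017 and 6119 and 6093 and 8766, and the Sdhb and Atp5b genes did not pass.

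In 2i medium, 5 members were higher and 1 lower in DKO libraries, where 3.19% of all genes were higher, 5.47% lower and 8.67% called. All 13 mitochondrial protein genes had positive log2 fold changes, with a median of 0.30. How many of all genes were positive is not given here, and the 13 share precursors and, in part, reads. In limma 0 of the 13 passed, 1 had an unadjusted p below 0.05, and limma-voom called 0. The largest changes were in RNAs that varied between replicates. mt-Rnr2 was at 2456 and 619 in WT and 201 and 465 in DKO libraries (log2 fold change -2.01 ± 0.56 (SE), limma adjusted p = 0.036), a call lost without WT 2i replicate 1 (0.38) or DKO 2i replicate 1 (0.33). The asparagine and alanine transfer RNAs mt-Tn and mt-Ta had 149 and 74.5 and 173 and 94.0 in WT and 213 and 273 and 257 and 290 in DKO libraries (limma adjusted p = 0.04 and 0.041). Both calls were lost without WT 2i replicate 2 (0.34 for both) and also without DKO 2i replicate 1 or 2. Ndufb4 (chr16:37647170-37654453, minus strand), an accessory subunit of complex I, was higher in 2i medium (789 and 752 against 1125 and 1102) and at day 2 (490 and 546 against 766 and 835). The groups did not overlap at either stage (log2 fold change 0.53 ± 0.12 (SE), limma adjusted p = 0.013 in 2i medium and log2 fold change 0.63 ± 0.12 (SE), limma adjusted p = 0.0029 at day 2). The call in 2i medium was lost without either WT 2i library (0.052 and 0.082) or either DKO 2i library (0.091 and 0.069), and the one at day 2 was kept without any single library. The pseudogene Ndufb4c shares 100% of its windows with Ndufb4 and is uncertain. Ndufb4 itself shares 36.98% of its windows with Ndufb4c and other transcripts, so its counts depend in part on how reads were divided. Ndufs7 was also higher, at 570 and 577 against 749 and 819 (log2 fold change 0.45 ± 0.11 (SE), limma adjusted p = 0.02), lost without either WT 2i library (0.097 and 0.079) or either DKO 2i library (0.057 and 0.16). The count of 6 became 0 to 3 without 1 library, 0 without DKO 2i replicate 1, and 0 when the 2 groups were fitted alone. 

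At day 2, 3 nuclear subunits were higher and 4 lower in DKO libraries, where 5.98% of all genes were higher, 6.64% lower and 12.6% called. Besides Ndufb4, the accessory subunit Ndufa2 was higher (log2 fold change 0.67 ± 0.18 (SE), limma adjusted p = 0.022), lost without either WT day 2 library (0.13 and 0.078) or DKO day 2 replicate 2 (0.17), as was Cox6b2 (log2 fold change 1.04 ± 0.32 (SE), limma adjusted p = 0.042), lost without either WT day 2 library (0.078 and 0.24) or DKO day 2 replicate 1 (0.41). Cox6a2 was lower, at 44.4 and 30.2 in WT and 12.8 and 17.9 in DKO libraries (log2 fold change -1.22 ± 0.29 (SE), limma adjusted p = 0.011), lost without WT day 2 replicate 1 (0.14) or DKO day 2 replicate 1 (0.11). Atp5g3 had 1435 and 1127 and 861 and 897 (log2 fold change -0.53 ± 0.11 (SE), limma adjusted p = 0.0051), lost without WT day 2 replicate 1 (0.097). Ndufb7, an accessory subunit of complex I, was lower too (log2 fold change -0.53 ± 0.12 (SE), limma adjusted p = 0.0077), lost without WT day 2 replicate 1 (0.092) or DKO day 2 replicate 1 (0.078). Cox4i1 was lower by 0.37 on the log2 scale and lost its call without any 1 of the 4 libraries, with adjusted p up to 0.27. Of the 35 mitochondrially encoded genes limma called 0 at day 2, with 1 at an unadjusted p below 0.05 and 0 in limma-voom, and the median of their log2 fold changes was 0.29. The 7 calls became 1 to 5 without 1 library, 1 without WT day 2 replicate 1, 4 without WT day 2 replicate 2 or DKO day 2 replicate 1, and 3 when the 2 groups were fitted alone.

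**Figure D5:**
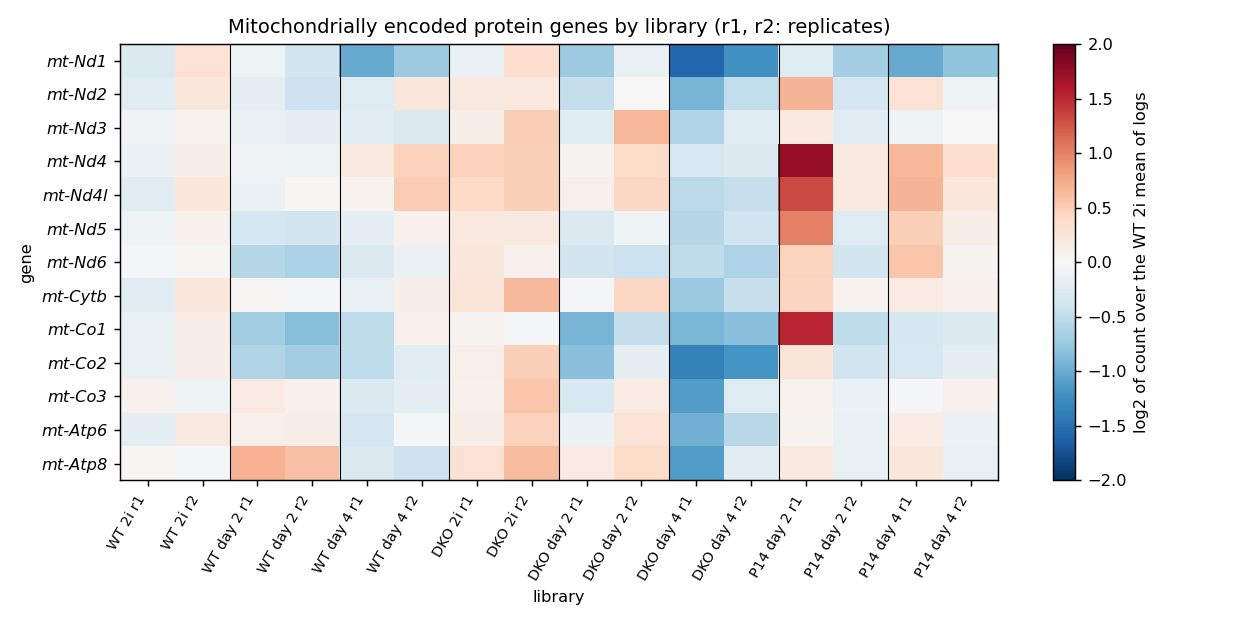
Heat map of the 13 mitochondrial protein genes in the 16 libraries, as log2 of the normalized count over the WT 2i mean of logs (colour scale -2 to 2). The DKO day 4 columns are low in most rows, and P14 day 2 replicate 1 is high for mt-Co1, mt-Nd4 and mt-Nd5.

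The interaction terms asked whether the DKO difference changed between stages. From 2i medium to day 4, 2 members had a positive and 6 a negative interaction, where 5.81% of all genes were positive, 3.95% negative and 9.76% called. For mt-Cytb the counts went from 17873 and 23722 to 18620 and 22374 in WT and from 24576 and 32351 to 12310 and 14968 in DKO libraries. WT ranges overlapped and DKO ranges did not (interaction -1.04 ± 0.27 on the log2 scale, limma adjusted p = 0.023). For mt-Co2 the DKO libraries went from 28026 and 36286 to 10227 and 11432 (interaction -1.20 ± 0.31, adjusted p = 0.022, limma). All 13 protein genes had a negative interaction, with a median of -0.78, and both sets share the same DKO and WT libraries. How many of all genes had a negative interaction is not given here. The 13 share precursors and, in part, reads, so their common sign is not that many separate observations. Of the 13, the 2 that passed were mt-Cytb and mt-Co2. Both calls were lost without WT 2i replicate 1, WT day 4 replicate 2, DKO 2i replicate 2 or DKO day 4 replicate 1, with adjusted p of 0.07 to 0.11. The transfer RNAs mt-Tn (-2.04 ± 0.48, adjusted p = 0.012), mt-Ta (-1.83 ± 0.44, adjusted p = 0.015) and mt-Tc (-1.68 ± 0.50, adjusted p = 0.047, limma), which lie in 1 cluster, also had negative interactions. Cox7a1 and Ndufa4l2 had positive interactions (1.17 ± 0.35, adjusted p = 0.048 and 1.73 ± 0.51, adjusted p = 0.045, limma). Their DKO counts were 81.6 and 85.6 and 78.4 and 43.6 in 2i medium and 67.9 and 62.1 and 71.8 and 39.1 at day 4. None of the 8 interactions passed in every fit without 1 library, and the count ranged from 0, without DKO 2i replicate 2, to 11, without DKO day 4 replicate 2. For the step from 2i medium to day 2, 1 member was positive and 2 negative, where 2.42% of all genes were positive, 1.31% negative and 3.73% called. Without 1 library the count was 0 to 2.

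Lists beside the members moved in DKO libraries at day 4 as follows, read against the 6.95% of all genes higher, 6.8% lower and 13.8% called there. Of 46 assembly factors 5 were higher and 0 lower, led by Cox17, a copper chaperone (0.80 ± 0.13, adjusted p = 4.6e-04), and Uqcc3, a complex III factor (0.61 ± 0.13, adjusted p = 0.0065, limma). The share called in either direction was below that of all genes, while the share higher was above 6.95%. Of 14 regulators 5 were higher and 0 lower, led by Esrrb (4.69 ± 0.10, adjusted p = 6.4e-14) and Myc (1.50 ± 0.12, adjusted p = 4.8e-07, limma). Of 22 listed RNA processing genes 5 were higher and 0 lower, led by Dimt1 (0.68 ± 0.13, adjusted p = 0.0022) and Mrm2 (0.86 ± 0.18, adjusted p = 0.0037, limma). Dimt1 is known for modifying cytoplasmic ribosomal RNA, so its call does not bear on mitochondrial RNA. Genes of mitochondrial DNA maintenance went both ways, with 2 higher and 3 lower, Polrmt up (0.51 ± 0.11, adjusted p = 0.0066) and Top1mt down (-0.84 ± 0.19, adjusted p = 0.009, limma). Of 14 tricarboxylic acid cycle enzymes 3 were higher and 0 lower, led by Idh2 (0.76 ± 0.11, adjusted p = 2.9e-04, limma). Of 14 pyruvate and lactate genes 4 were higher and 2 lower, with Ldhb up (1.42 ± 0.11, adjusted p = 3.6e-07) and Ldha down (-0.62 ± 0.11, adjusted p = 0.0012, limma). Of 12 genes of alternative electron entry and uncoupling 3 were higher and 0 lower.

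The third comparison set P14 libraries, with the highest Prdm14 counts, against WT of the same day. It uses the same WT libraries as the DKO comparison, so the values stand side by side only. Nuclear subunits past the threshold were all higher, 10 at day 2 and 7 at day 4. At day 2, 12 members were higher and 0 lower, 10 of them nuclear subunits, where 3.69% of all genes were higher, 4.69% lower and 8.38% called. At day 4, 7 were higher and 0 lower, all nuclear subunits, where 7.43% were higher, 8.75% lower and 16.2% called. Among genes with a mean of at least 200, 6.18% were higher at day 2 and 10.6% at day 4, against 8 and 5 of 73 subunits, so the day 4 count lay near its background. The median log2 fold change of the 82 subunits was 0.10 at day 2 and 0.18 at day 4.

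Cox6a2 was the member with the largest change. Its counts were 44.4 and 30.2 in WT and 217 and 264 in P14 libraries at day 2, and 28.1 and 21.7 and 370 and 434 at day 4. P14 counts lay above all 12 libraries of WT and DKO cells, at 6.40 times WT at day 2 and 15.7 times at day 4. Both differences passed in limma (log2 fold change 2.68 ± 0.29 (SE), limma adjusted p = 2.6e-05 at day 2, log2 fold change 3.97 ± 0.29 (SE), limma adjusted p = 1.6e-07 at day 4), in every fit without 1 library and under each other alternative. Cox6a2 made up 13.2% ± 0.998 (SD, n = 2) of the Cox6a1 and Cox6a2 pair per kilobase at P14 day 2 and 17.8% ± 1.73 at day 4. Cox6a1, the other isoform, did not pass at either day (log2 fold changes 0.07 and 0.38). The gene overlaps 70 exonic bases of Itgad on the opposite strand, and Itgad had 0 to 12.8 counts in any library. Armc5, a neighbour of Cox6a2 chosen after its values were seen, had 546 and 570 counts at WT day 4 and 598 and 706 at P14 day 4. In DKO libraries, where Prdm14 counts were also above WT, Cox6a2 was 77.4 and 81.6 in 2i medium, 12.8 and 17.9 at day 2 and 51.1 and 65.9 at day 4. It was higher than WT at day 4 alone (log2 fold change 1.20 ± 0.29 (SE), limma adjusted p = 0.011), a call lost without WT day 4 replicate 2 (0.10) or DKO day 4 replicate 2 (0.084).

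Cox7a1 was higher at P14 day 4, with 36.7 and 39.7 in WT and 115 and 97.6 in P14 libraries (log2 fold change 1.45 ± 0.25 (SE), limma adjusted p = 7.0e-04), and kept its call without any single library. At day 2 it did not pass, at 77.9 and 60.3 and 77.0 and 80.5 (log2 fold change 0.20 ± 0.25 (SE), limma adjusted p = 0.70), and the change of this difference between the days missed the threshold (log2 fold change 1.25 ± 0.35 (SE), limma adjusted p = 0.052). Ndufa4l2, the third isoform gene that fell in WT cells, had 90.8 and 106 at P14 day 2 and 61.2 and 49.3 at day 4 and did not pass (limma adjusted p = 0.052 and 0.19). Ndufb11, an accessory subunit of complex I, was higher at day 2, at 673 and 609 in WT and 1311 and 1116 in P14 libraries (log2 fold change 0.92 ± 0.13 (SE), limma adjusted p = 2.5e-04), and kept its call without any single library. Atp5e, the epsilon subunit of complex V, had 1526 and 1174 and 3172 and 3037 at day 2 (log2 fold change 1.21 ± 0.23 (SE), limma adjusted p = 0.0037), a call lost without WT day 2 replicate 2 (0.058). The assembly factor Ndufaf8 had 84.4 and 72.6 and 163 and 160 (log2 fold change 1.03 ± 0.21 (SE), limma adjusted p = 0.0051), lost without WT day 2 replicate 2 (0.055). Cox6b1 had 291 and 282 and 544 and 537 at day 2 (log2 fold change 0.91 ± 0.20 (SE), limma adjusted p = 0.0093), lost without either WT day 2 library (0.059 and 0.066) or P14 day 2 replicate 1 (0.055). For Cox6b1 the day 2 to day 4 step in P14 libraries, to 533 and 444, lacked the rise seen in WT, and the interaction passed (log2 fold change -1.35 ± 0.28 (SE), limma adjusted p = 0.0097). It was 1 of 3 members with a negative interaction and 0 with a positive one, where 2.5% of all genes were positive, 2.93% negative and 5.43% called. The call was lost without WT day 4 replicate 2 (0.062) or P14 day 4 replicate 2 (0.053). At day 4, Uqcrq had 2561 and 2553 and 3519 and 4525 (log2 fold change 0.64 ± 0.17 (SE), limma adjusted p = 0.015), lost without either WT day 4 library (0.073 and 0.078) or P14 day 4 replicate 2 (0.17). Atp5g1 had 829 and 815 and 1036 and 1379 (log2 fold change 0.54 ± 0.15 (SE), limma adjusted p = 0.022), lost without either WT day 4 library (0.086 and 0.11) or P14 day 4 replicate 2 (0.25). Ndufs8 had 394 and 419 and 498 and 641 (log2 fold change 0.48 ± 0.15 (SE), limma adjusted p = 0.042), lost without either WT day 4 library (0.19 and 0.11) or P14 day 4 replicate 2 (0.34).

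Mitochondrially encoded genes of P14 cells showed 1 call, at day 2. There 15 of the 35, and 7 of the 13 protein genes, had an unadjusted p below 0.05 in limma, and limma-voom called 0. The share of all genes at that unadjusted p is not given here, so these counts are not read as a rise. Mitochondrially encoded genes also share precursors and, in part, reads. The transfer RNA mt-Ts1 was higher at day 2, at 63.8 and 98.0 in WT and 360 and 152 in P14 libraries (log2 fold change 1.55 ± 0.39 (SE), limma adjusted p = 0.02), a call lost without WT day 2 replicate 1 (0.19) or P14 day 2 replicate 1 (0.24), at 0.051 in limma-voom and at 0.23 when the 2 groups were fitted alone. P14 day 2 replicate 1 stood apart, with 4.10 times the mt-Co1 count of replicate 2, 2.94 times for mt-Nd4 and 2.40 times for mt-Nd5. The counts of mt-Co1, the catalytic core of complex IV, were 33346 and 8124 there and 7104 and 6426 at WT day 2, and the difference did not pass (log2 fold change 1.28 ± 0.41 (SE), limma adjusted p = 0.067). In total the day 2 calls numbered 26 without P14 day 2 replicate 2 and 5 without either WT day 2 library, against 12 with all. They were 2 when only the 2 groups were fitted. The day 4 calls numbered 3 to 6 without 1 library, 3 without WT day 4 replicate 1 or P14 day 4 replicate 2. At day 4 the median log2 fold change of the 35 mitochondrially encoded genes was -0.04. In limma 0 passed, 2 had an unadjusted p below 0.05, and limma-voom called 0.

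In P14 libraries at day 4, lists are read against the 7.43% of all genes higher, 8.75% lower and 16.2% called. Assembly factors went both ways, with 2 higher and 2 lower of 46, a share called below that of all genes, led by Cox17 (0.79 ± 0.13, adjusted p = 3.6e-04) and Cox19 (-0.68 ± 0.16, adjusted p = 0.0086, limma). Of 14 regulators 3 were higher and 0 lower, led by Esrrb, at 179 and 183 in WT and 2732 and 2959 in P14 libraries (log2 fold change 3.96 ± 0.10 (SE), limma adjusted p = 7.8e-13), and Esrra (0.48 ± 0.14, adjusted p = 0.025, limma). Of 14 tricarboxylic acid cycle enzymes 2 were higher and 0 lower, Idh2 (0.97 ± 0.11, adjusted p = 1.9e-05) and Idh3g (0.44 ± 0.10, adjusted p = 0.0061, limma). Again the share called in either direction was below that of all genes, while the share higher was above 7.43%. Of 21 genes of mitochondrial DNA maintenance 0 were higher and 2 lower, of 22 RNA processing genes 2 were higher and 1 lower, and of 12 genes of alternative electron entry 2 were higher and 1 lower. Of 14 pyruvate and lactate genes 5 were higher and 1 lower. Ldha, the lactate dehydrogenase subunit of glycolytic tissues, was lower (log2 fold change -1.63 ± 0.11 (SE), limma adjusted p = 5.9e-08) and Ldhb, that of heart, higher (1.41 ± 0.11, adjusted p = 2.9e-07, limma).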

How the data were processed

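The deposited table gives log2 values per gene and library. Per the submitters' processing notes, the authors used Trim Galore, HISAT2 and featureCounts on mm10/GRCm38; their versions, and the annotation, strand setting, scaling and handling of multi-mapping reads, are not stated in those notes. In the deposited table the values were whole read counts divided by 1 factor per library, plus 4, on the log2 scale. Below 1000 reads, 100% came out whole within 0.1 read. Reads were recovered so, and normalized counts are the values with 4 subtracted after undoing the log. The 667 entries without a symbol (7.61% to 11.1% of reads) stayed out.

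limma 3.58.1 (R 4.3.3, trended variance) was fitted to log2(normalized count + 1) over all 16 libraries and 8 group means. Genes needed at least 1 in 2 libraries (21450 genes). The 11 comparisons were adjusted by Benjamini-Hochberg over all genes, with a threshold of 0.05. Python 3.11.15, pandas 2.3.3, numpy 2.4.6 and matplotlib 3.10.9 were used. The fit was tested on simulated data.

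Members follow from symbols alone, but the set and the lists were chosen with earlier results of these data known. Named were, per comparison, the 5 largest rises and falls past the threshold with a group mean of at least 10 (3 of each for interactions), a fixed set of catalytic, core and isoform genes, and the 2 smallest adjusted p of each list. Other genes named are marked in the text. List genes are given for the day 4 comparisons, and 1 gene is not reported here. Alternatives were another pseudocount, filters, scalings, TMM, limma-voom, a replicate block, fits of the compared groups alone and leaving out each library.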

Additional observations from a re-analysis of the deposited data

Results flagged for a closer look

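In 14 members the difference from WT changed between stages, by an interaction term in limma with an adjusted p below 0.05. In the order of the paragraphs below they were 3, 8 and 3 of the 132 members. Of all genes, 3.73%, 9.76% and 5.43% were called in those terms, so each share of members lay below that of all genes. Each value is on the log2 scale, and none of the 14 passed in every fit without 1 library.

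Between 2i medium and day 2, the DKO difference from WT moved by -0.8386 for Atp5l, by -0.6851 for Ndufs7 and by 0.9564 for Ndufa2. Counts of Ndufs7 went from 570 and 577 to 820 and 745 in WT and from 749 and 819 to 632 and 698 in DKO libraries.

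Between 2i medium and day 4, it moved by -2.038 for mt-Tn, -1.829 for mt-Ta and -1.676 for mt-Tc, transfer RNAs of 1 cluster. It moved by -1.201 for mt-Co2, whose reads may be shared with a nuclear copy, and by -1.042 for mt-Cytb, which shares no window. It moved by -0.7203 for Cox7a2l, a factor of respiratory supercomplexes, by 1.174 for Cox7a1 and by 1.734 for Ndufa4l2. WT 2i counts of Ndufa4l2 were 94.8 and 152.

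Between day 2 and day 4, the P14 difference from WT moved by -1.349 for Cox6b1, -1.194 for Ndufaf8 and -0.6662 for Ndufs6. WT day 2 counts of Cox6b1 were 291 and 282.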

How the results depend on the processing

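No result changed its direction past the threshold in any alternative run. Counts of members past the threshold moved by more than 1.5 times as follows, and the cause was not tested. From WT day 2 to day 4 the 29 became 45 with median centring and 19 with scaling to named entries without mitochondrial genes. With that scaling the P14 day 4 count went from 7 to 4, the DKO interaction from 2i to day 2 from 3 to 0, and the P14 interaction from 3 to 1. A filter at 10 gave 5 for the P14 interaction. With only the compared groups fitted, and so fewer libraries behind the variance, DKO counts fell to 0 (2i medium), 3 (day 2) and 6 (day 4), P14 counts 2 at day 2 and 4 at day 4, and the DKO interaction from 2i to day 2 was 5. Leaving out 1 library gave 14 to 22 members for WT day 2 against 2i, 14 to 20 for WT day 4 against day 2 and 37 to 45 for WT day 4 against 2i. It gave 0 to 3 for DKO cells kept in 2i, 1 to 5 for DKO day 2, 1 to 9 for DKO day 4, and 5 to 26 and 3 to 6 for P14 at day 2 and day 4. For the interactions it gave 0 to 2 and 0 to 11 for DKO at day 2 and day 4 and 0 to 15 for P14. The lone library left in a group is then assumed to vary like the other groups. Replicate numbers did not pair the samples, with correlations of deviations of -0.0827 to 0.143 over 28 group pairs. The fit with a replicate block gave 48 members for WT day 4 against 2i, 4 for DKO in 2i medium and 17 for DKO at day 4. With 2 libraries a group, small changes of low genes were not detectable at this depth.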
